A study of Mus musculus with 2 samples.

Results

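The genes described here encode the proteins of the cytosolic ribosome and their close paralogues, measured in dissociated cells of the adult mouse testis. Members were the rows of the count table whose symbol begins with Rpl or Rps followed by a number, plus Rplp0, Rplp1, Rplp2 and Rpsa, with pseudogene symbols left out. This rule found 84 of 20476 genes, 52 with symbols starting Rpl for the large subunit and 32 starting Rps for the small subunit. Of them, 77 are called core members here. The other 7 are paralogues of a core member, namely Rpl10l, Rpl39l, Rpl36al, Rpl22l1, Rps27l, Rpl7l1 and Rpl3l.

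The study profiled total testicular cells of adult wild-type (WT) mice and of miR-202-/- (KO) mice, both of the strain given as C57BL/CJ;ICR, with 1 library for each genotype. Testes were digested to single cells, debris was removed by FACS, and the cells were run with droplet 3′ chemistry, in which each captured RNA molecule is counted by its unique molecular identifier (UMI). Barcode names in the table end in 1 or 2, read here as the mark of a library, and no label ties a mark to a genotype. WT and KO were therefore not compared, every value is given under both marks, and the marks are not replicates of a condition, so there is no test and no p-value.

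A ribosome joins a small subunit, which reads the mRNA, to a large subunit, which links amino acids into protein. Most vertebrate ribosomal protein mRNAs begin with a run of pyrimidines that ties their translation to growth signals. A few ribosomal protein genes lie on the X chromosome, which is silenced together with the Y in male meiosis, and some of these have autosomal copies expressed in male germ cells. Rpl10l is known to be needed for male meiosis and Rpl39l for normal sperm formation in the mouse.

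Of the 84 members, 4 lie on the X chromosome, and 3 of these have an autosomal paralogue among the members. In GRCm38 coordinates from GENCODE M21, Rpl10 spans chrX:74270812-74273135 on the forward strand, Rpl39 chrX:37082520-37085402 on the reverse strand and Rpl36a chrX:134585654-134588062 on the forward strand. The remaining X-linked member, Rps4x, spans chrX:102184941-102189394 on the reverse strand. Rpl10l (chr12:66283379-66284401, reverse strand) and Rpl36al (chr12:69182731-69184083, reverse strand) each have a principal transcript of 1 exon, whereas that of Rpl39l (chr16:10170226-10174911, forward strand) has 3 exons. The promoters of these pairs are shown because the 3 X-linked genes and their autosomal copies parted in the spermatocyte gates described further on. Each line holds the 80 bases before and the 20 bases from the gene start annotated by RefSeq on GRCm38.p6, written 5′ to 3′ on the gene's own strand. Capitals mark a run of at least 6 bases of C or T that begins within 10 bases of that start.
Rpl10 (chrX:74270736-74270835, forward strand): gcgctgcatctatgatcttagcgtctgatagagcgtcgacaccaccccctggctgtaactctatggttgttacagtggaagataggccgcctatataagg
Rpl10l (chr12:66284382-66284481, reverse strand): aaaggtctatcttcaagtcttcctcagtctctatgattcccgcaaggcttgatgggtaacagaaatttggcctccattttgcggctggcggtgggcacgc
Rpl39 (chrX:37085203-37085302, reverse strand): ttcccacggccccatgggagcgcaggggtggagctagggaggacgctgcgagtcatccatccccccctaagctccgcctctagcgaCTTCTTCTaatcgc
Rpl39l (chr16:10170148-10170247, forward strand): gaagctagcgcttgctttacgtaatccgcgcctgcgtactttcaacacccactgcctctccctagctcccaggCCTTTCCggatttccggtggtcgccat
Rpl36a (chrX:134585574-134585673, forward strand): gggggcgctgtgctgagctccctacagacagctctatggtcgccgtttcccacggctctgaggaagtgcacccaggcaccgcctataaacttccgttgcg
Rpl36al (chr12:69184048-69184147, reverse strand): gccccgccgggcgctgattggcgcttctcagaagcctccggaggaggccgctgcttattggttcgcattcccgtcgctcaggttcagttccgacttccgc
Such a run was found in Rpl39, where it begins at base 7 from the start and is 8 bases long, and in Rpl39l, where it begins at base -7 and is 7 bases long. It was not found in the windows of Rpl10, Rpl10l, Rpl36a and Rpl36al, which says only that these letters are not there. RefSeq held a promoter for 64 members, and 31 of these (48.4%) had the run on the gene's own strand. Of all 14653 genes with a promoter, 3892 (26.6%) had the run. A run counted here can lie before the start, as in Rpl39l, or begin after it, as in Rpl39. Whether the mRNAs themselves begin with such a run was not tested. By role the run was present in 29 core members (50.9%) and in 2 paralogues (28.6%).

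The coding sequences of Rpl39 and Rpl39l show how close the copies are. Each has 153 bases without the stop codon, taken from the GENCODE M21 principal transcripts, and the 23 bases that differ are in capitals.
Rpl39: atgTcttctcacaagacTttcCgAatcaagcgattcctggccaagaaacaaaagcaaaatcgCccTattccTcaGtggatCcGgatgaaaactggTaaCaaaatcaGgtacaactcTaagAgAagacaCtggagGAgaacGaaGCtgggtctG
Rpl39l: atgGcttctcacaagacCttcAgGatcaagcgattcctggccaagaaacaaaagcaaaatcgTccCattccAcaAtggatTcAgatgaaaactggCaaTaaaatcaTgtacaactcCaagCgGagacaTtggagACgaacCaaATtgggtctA
They were identical at 130 of 153 aligned bases (85.0%). Identity was 84.7% for Rpl10 and Rpl10l, 87.7% for Rpl36a and Rpl36al, 76.2% for Rps27 and Rps27l, 73.2% for Rpl3 and Rpl3l, 67.5% for Rpl22 and Rpl22l1 and 54.4% for Rpl7 and Rpl7l1. Because the reads come from 3′ ends, the last 400 bases of each principal transcript were also searched in windows of 60 bases for exact copies in transcripts of other genes. No window of Rpl10l or Rpl39l was shared with another gene. For Rpl10 and Rpl36a every window had a copy elsewhere, in pseudogenes that include Rpl10-ps3 and Rpl36a-ps1. Reads of these 2 genes could thus have been split or dropped in counting, so their levels are uncertain, as are those of the 40 members with at least 50% of windows shared.

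The table holds 12935 barcodes under mark 1 and 15310 under mark 2, with a median of 6061 and 5509 UMIs and a minimum of 3924 and 3529. The same barcode sequence occurred under both marks 73 times. Cells were assigned by marker gates, each of which asks for a summed level of its marker genes and at least 3 different markers. The gates took 11100 barcodes, 193 passed more than 1 gate and were left out, and 16952 passed none. The spermatogonium gate was selected on spermatogonium markers. In it the 10 differentiating spermatogonium markers summed to 1761 CPM and the 12 Sertoli markers to 150 CPM, and 6 of 10 T or NK markers were at 0. The 8 pachytene markers summed to 722 CPM there and the 12 round spermatid markers to 803 CPM. The 10 elongating or condensing spermatid markers summed to 21665 CPM in that gate. The 10 preleptotene to zygotene markers summed to 1817 CPM in their own gate, which was selected on them, and 349 CPM in spermatogonia. In the preleptotene to zygotene gate the 8 pachytene markers summed to 1902 CPM and the 12 round spermatid markers to 1248 CPM. Ungated barcodes under 5000 UMIs had a median of 6.22% of UMIs from the 10 elongating or condensing spermatid markers. These barcodes serve here as the profile of free RNA. The 10 markers include Prm1, Prm2, Tnp1 and Tnp2, which encode protamines and transition proteins of late spermatids. Scaled on those 4 genes, the profile could account for 34.3% (mark 1) and 33.5% (mark 2) of the spermatogonium gate and for 44.2% and 45.5% of the preleptotene to zygotene gate. It was 13.6% and 14.2% in the pachytene gate, 10.0% and 10.3% in the diplotene or dividing gate and 17.3% and 16.6% in the round spermatid gate. In the somatic gates the estimate ran from 63.9% to 113%, so no somatic value was corrected.

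Ribosomal protein transcripts took the largest share of UMIs in the spermatogonium gate and a smaller share in each later germ gate up to the Hemgn-high spermatids. Levels are counts per 1000000 UMIs of a gate (CPM), not divided by gene length because each molecule is tagged once at its 3′ end, and shares are percent of its UMIs. The share was 13.3% under mark 1 and 13.8% under mark 2 over 152 and 156 spermatogonium barcodes, with exact 95% counting intervals of 13.3 to 13.4% and 13.7 to 13.8%. It was 8.62% and 8.88% in the preleptotene to zygotene gate, 8.04% and 8.38% in the pachytene gate and 5.79% and 5.91% in the diplotene or dividing gate. Round spermatids stood at 5.35% and 5.51%, Hemgn-high spermatids at 3.95% and 4.04%, and condensing spermatids at 4.32% and 4.46%. The Hemgn-high gate also asked for Hemgn, an intermediate level of the elongating or condensing spermatid markers, and at least 15000 UMIs per barcode. The ungated low-UMI barcodes stood at 5.43%. With the free RNA profile subtracted the pooled share was 17.4% in the spermatogonium gate, 11.1% in the preleptotene to zygotene gate and 8.64% in the pachytene gate, in the same order.

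Per barcode the order was different. Spermatogonia held a mean of 1792 member UMIs under mark 1 and 1654 under mark 2, and the preleptotene to zygotene gate 756 and 677. Pachytene barcodes held 3033 and 2684 and diplotene or dividing barcodes 2993 and 2701. The mean was 1708 and 1591 in round spermatids and 674 and 616 in condensing spermatids. Median total UMIs moved with these values, from 12637 and 11273 in spermatogonia to 36230 and 29920 in the pachytene gate and 12986 and 12038 in condensing spermatids. The share and the number per barcode thus rank the gates differently, and RNA content per cell cannot be told apart from capture per droplet.

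**Figure D1:**
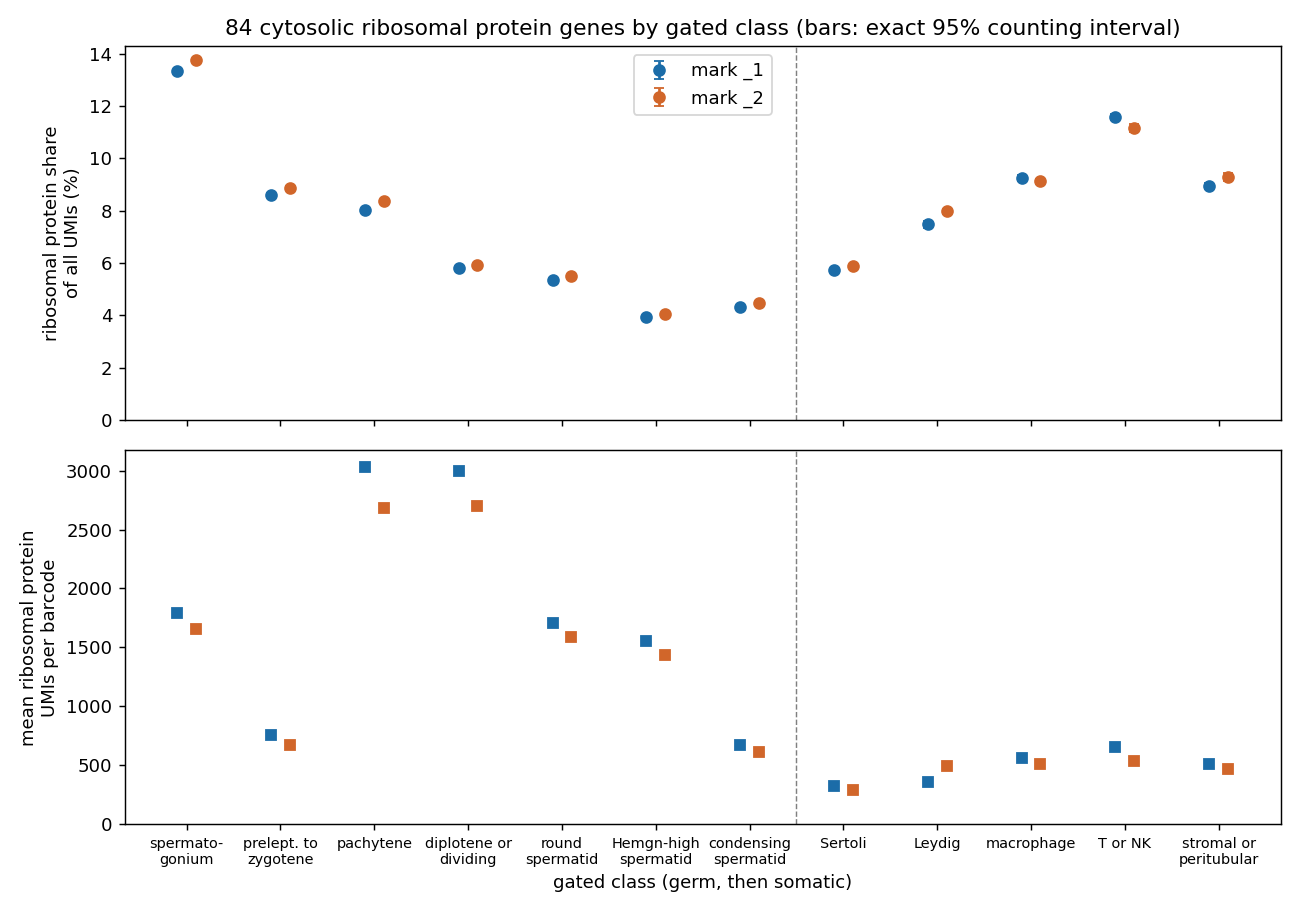
The upper plot shows the share of UMIs from the 84 ribosomal protein genes (percent, with exact 95% counting intervals) and the lower plot the mean number of their UMIs per barcode, by gate (x axis) and barcode mark (blue and orange). The share is highest in spermatogonia, at 13.3% and 13.8%, whereas the number per barcode is highest in the pachytene and diplotene or dividing gates, at 2684 to 3033.

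Among somatic gates the share ran from 5.75% and 5.89% in Sertoli cells, the supporting cells of the tubule, to 11.6% and 11.2% in T or NK cells. It was 7.47% and 7.97% in Leydig cells, which make testosterone, 9.23% and 9.12% in macrophages and 8.95% and 9.29% in stromal or peritubular cells. Somatic barcodes were shallow, with medians of 4205 to 5585 UMIs. Medians of 3.96% to 6.25% of their UMIs came from the 10 elongating or condensing spermatid markers. The part of free RNA in these shares was not tested. The small subunit supplied a similar part of the core UMIs in every gate, from 40.5% in the pachytene gate under mark 2 to 45.5% in the preleptotene to zygotene gate under mark 1.

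The X-linked members were close to absent from the pachytene gate onward. Rpl10, whose protein sits near the binding site of tRNAs, stood at 335 CPM under each mark in spermatogonia, 188 and 166 CPM in the preleptotene to zygotene gate and 4.09 and 4.94 CPM in the pachytene gate. Rpl36a stood at 584 and 550 CPM, then 234 and 224 CPM, then 0.995 and 0.786 CPM. Rpl39, which encodes a very small protein of the exit tunnel, stood at 263 and 191 CPM, then 436 and 436 CPM, then 1.66 and 2.58 CPM. In all 3 genes both marks of the pachytene gate lay far below both marks of the preceding gate. Pachytene ratios to the preceding gate were 0.0217 (95% interval 0.0147 to 0.0313) and 0.0298 (0.0203 to 0.0431) for Rpl10. They were 0.0038 (0.00211 to 0.00636) and 0.00593 (0.00369 to 0.00911) for Rpl39, and 0.00425 (0.00191 to 0.00824) and 0.00351 (0.00138 to 0.00744) for Rpl36a. Rps4x, a small subunit protein, was already low in spermatogonia, at 57.8 and 85.9 CPM, and stood at 26.0 and 31.0 CPM and then 1.22 and 0.786 CPM. It was called lower at the first of these steps, and at the step into the pachytene gate it was below the 50 CPM that a call required.

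The summed level of the 4 genes did not return to that of spermatogonia in any later gate. The sum was 1239 and 1163 CPM in spermatogonia, 884 and 857 CPM in the preleptotene to zygotene gate, 7.96 and 9.09 CPM in the pachytene gate and 5.81 and 5.87 CPM in the diplotene or dividing gate. It was 11.2 and 11.4 CPM in round spermatids and 12.2 and 11.5 CPM in condensing spermatids. The ungated low-UMI barcodes held 14.0 and 12.3 CPM of Rpl10 and 8.8 and 8.2 CPM of Rpl39, and both genes were lower than this in the spermatid gates. As a percentage of the spermatogonium level, the highest of the 4 genes was at 2.14% in round spermatids, 2.47% in Hemgn-high spermatids and 2.04% in condensing spermatids. Of the 80 other X-linked genes with at least 50 CPM in spermatogonia, 33 (41.3%) stood at 10% or more of that level in round spermatids, against 0 of the 4 members and 69 of 73 autosomal core members (94.5%). In the pachytene gate 15 of the 80 (18.8%) did so. With 4 genes, this difference is a description.

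In the somatic gates other than Sertoli cells the 4 genes were abundant. Their sum was 1268 and 1767 CPM in Leydig cells and 2834 and 2730 CPM in macrophages. It was 3191 and 2639 CPM in T or NK cells and 3257 and 3429 CPM in stromal or peritubular cells. Rps4x stood above its spermatogonium level there, at 822 and 835 CPM in macrophages, 1072 and 848 CPM in T or NK cells and 981 and 992 CPM in stromal or peritubular cells. In Sertoli cells the sum was 226 and 243 CPM, lower than in the other somatic gates and in spermatogonia. The free RNA estimate was 113% and 109% in the Sertoli gate and 92.4% and 113% in the Leydig gate. Its part in these sums was not tested.

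Shares of barcodes with a UMI followed the same pattern after every barcode had been thinned to 3500 UMIs. A UMI of Rpl10 was found in 61.2% and 60.3% of thinned spermatogonia, against 2.08% and 1.80% of pachytene barcodes (89.5% and 90.4%, against 12.5% and 13.7%, before thinning). For Rpl36a the thinned shares were 82.9% and 79.5% against 0.417% and 1.08%.

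**Figure D2:**
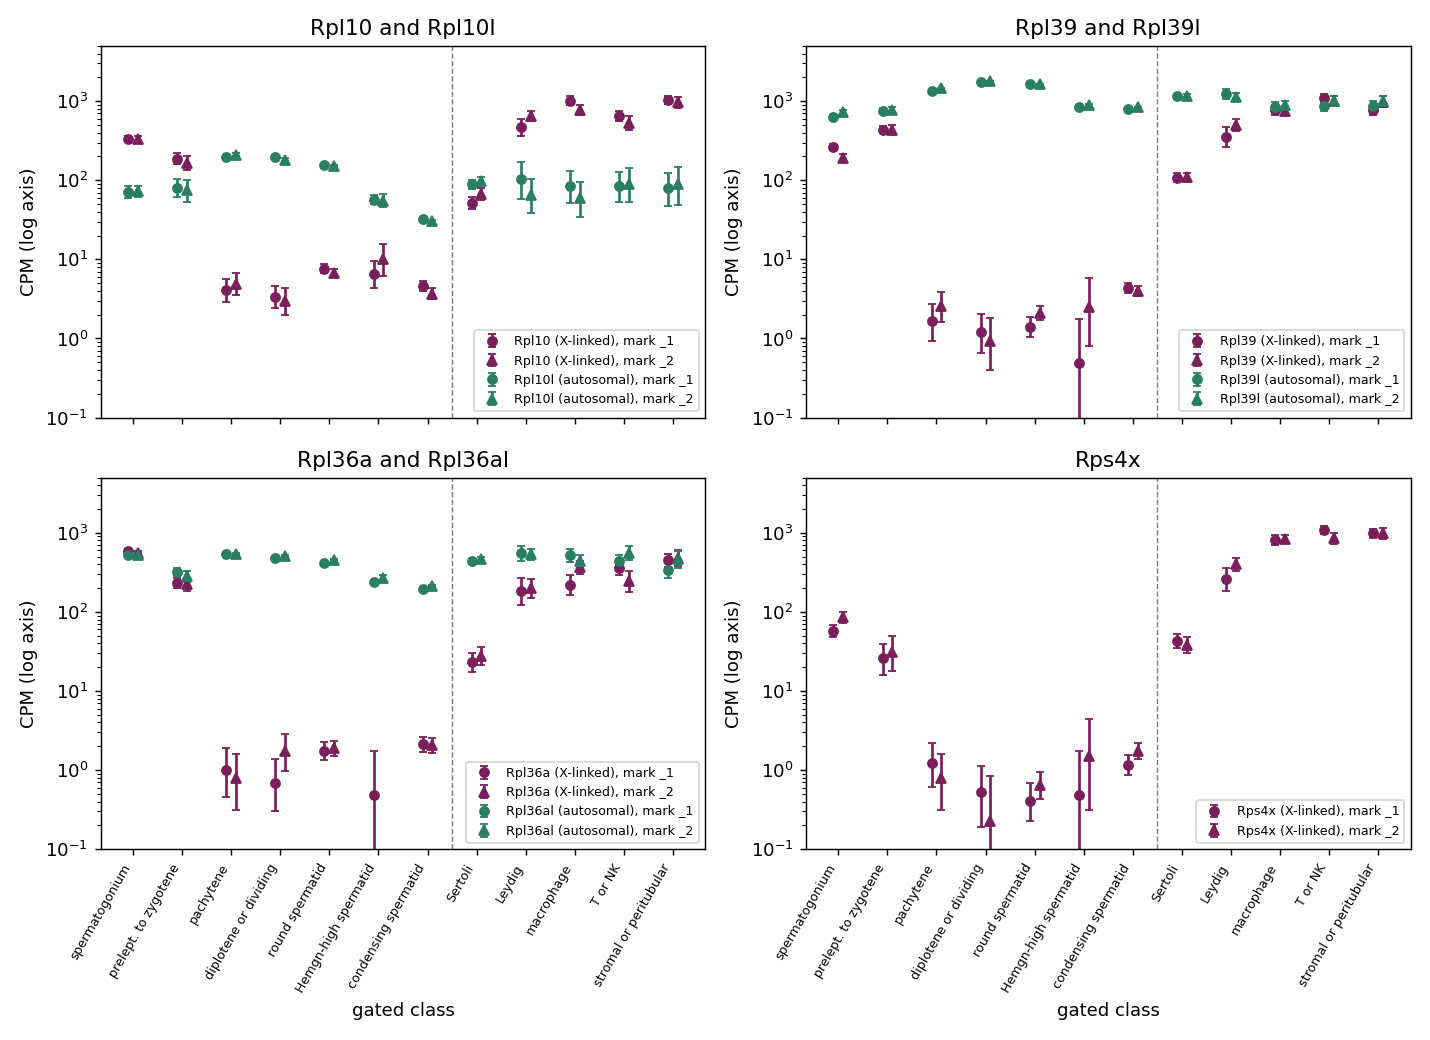
Level in CPM on a log axis, by gate (x axis), of the 4 X-linked members (purple) and the 3 autosomal paralogues (green), under mark 1 (circles) and mark 2 (triangles), with exact 95% counting intervals and points at 0 not drawn. The X-linked genes lie at or below 10.0 CPM in the germ gates from pachytene on, while Rpl39l lies between 791 and 1791 CPM there.

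The 3 autosomal paralogues of these genes were each called higher at the same step. Rpl10l stood at 71.5 and 72.5 CPM in spermatogonia, 80.5 and 74.7 CPM in the preleptotene to zygotene gate, 195 and 210 CPM in the pachytene gate and 194 and 182 CPM in the diplotene or dividing gate. It then stood at 158 and 151 CPM in round, 56.6 and 55.1 CPM in Hemgn-high and 32.8 and 30.2 CPM in condensing spermatids. The level before pachytene was below the 109 and 104 CPM of ungated barcodes and the 84.2 and 90.1 CPM of T or NK cells. In thinned barcodes a UMI of Rpl10l was found in 49.6% and 53.2% of pachytene barcodes, 22.4% and 20.5% of spermatogonia and 33.3% and 23.1% of T or NK cells (98.8% and 97.8%, 60.5% and 55.1%, and 39.6% and 33.3% before thinning).

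Rpl39l was the most abundant paralogue. It stood at 640 and 729 CPM in spermatogonia, 760 and 771 CPM in the preleptotene to zygotene gate, 1366 and 1459 CPM in the pachytene gate and 1774 and 1791 CPM in the diplotene or dividing gate. It remained at 1650 and 1655 CPM in round spermatids and 791 and 843 CPM in condensing spermatids. In the diplotene or dividing gate it was 3.06% and 3.03% of all member UMIs, against 0.480% and 0.530% in spermatogonia. Ungated barcodes held 1344 and 1358 CPM, so the spermatogonium and somatic levels, of which the highest was 1234 CPM in Leydig cells, lay below those of the ungated barcodes. Rpl36al stood at 527 and 518 CPM in spermatogonia, 321 and 281 CPM in the preleptotene to zygotene gate and 532 and 541 CPM in the pachytene gate, called lower at the first of these steps and higher at the second. From the preceding gate to the pachytene gate the ratios were 2.42 (1.89 to 3.15) and 2.81 (2.06 to 3.93) for Rpl10l, 1.80 (1.66 to 1.95) and 1.89 (1.72 to 2.09) for Rpl39l and 1.66 (1.46 to 1.89) and 1.93 (1.64 to 2.28) for Rpl36al. The pachytene gate had less estimated free RNA than the gate before it, and with the free RNA profile subtracted all 3 ratios were larger and all 3 calls were kept. With DESeq2 size factors the call of Rpl36al was lost.

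As a share of the UMIs of each pair, Rpl10l made up 17.6% (15.1 to 20.4%) and 17.8% (15.1 to 20.7%) in spermatogonia and 97.9% (97.2 to 98.6%) and 97.7% (96.9 to 98.3%) in the pachytene gate. It was 95.4% and 95.7% in round spermatids. With free RNA subtracted, the pooled share in spermatogonia was 9.78%. In uncorrected counts Rpl39l made up 70.9% and 79.2% of its pair in spermatogonia and 63.6% and 63.9% in the preleptotene to zygotene gate. It made up 99.9% and 99.8% in the pachytene gate. Subtraction took the spermatogonium share to 49.9%, while doubling the marker threshold took it to 86.8%, so the starting share is poorly fixed. The preleptotene to zygotene gate had more estimated free RNA, 44.2% and 45.5%, and less Rpl39l than the ungated barcodes. Whether Rpl39l held most of its pair before the pachytene gate is therefore not settled. Rpl36al made up 47.4% and 48.5% in spermatogonia, 57.8% and 55.6% in the preleptotene to zygotene gate and 99.8% and 99.9% in the pachytene gate. In the stromal or peritubular gate the shares were 7.12% and 8.43% for Rpl10l, 52.8% and 50.2% for Rpl39l and 42.6% and 49.0% for Rpl36al.

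The other 4 pairs are all autosomal, and only Rpl22 and Rpl22l1 changed places. Rpl22 encodes a large subunit protein that also binds RNA outside the ribosome, and Rpl22l1 is known to be held down by it in other tissues. Rpl22 stood at 1181 and 1127 CPM in spermatogonia, 399 and 442 CPM in the pachytene gate and 119 and 129 CPM in the diplotene or dividing gate. Rpl22l1 stood at 355 and 443 CPM, 342 and 333 CPM and 548 and 579 CPM in the same gates. Its share of the pair went from 23.1% and 28.2% in spermatogonia to 46.2% and 43.0% in the pachytene gate and 82.2% and 81.7% in the diplotene or dividing gate, and was 49.9% and 47.1% in condensing spermatids. Rps27l, a paralogue known as a p53 target, made up 33.4% and 31.1% of its pair in spermatogonia and 8.70% and 7.67% in condensing spermatids. Rpl7l1 made up 12.6% and 10.1% in spermatogonia and 2.11% and 2.26% in condensing spermatids. Rpl3l, known from heart and skeletal muscle, had the fewest UMIs of all members, 86 over all barcodes, and never exceeded 0.919% of its pair in a germ gate.

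**Figure D3:**
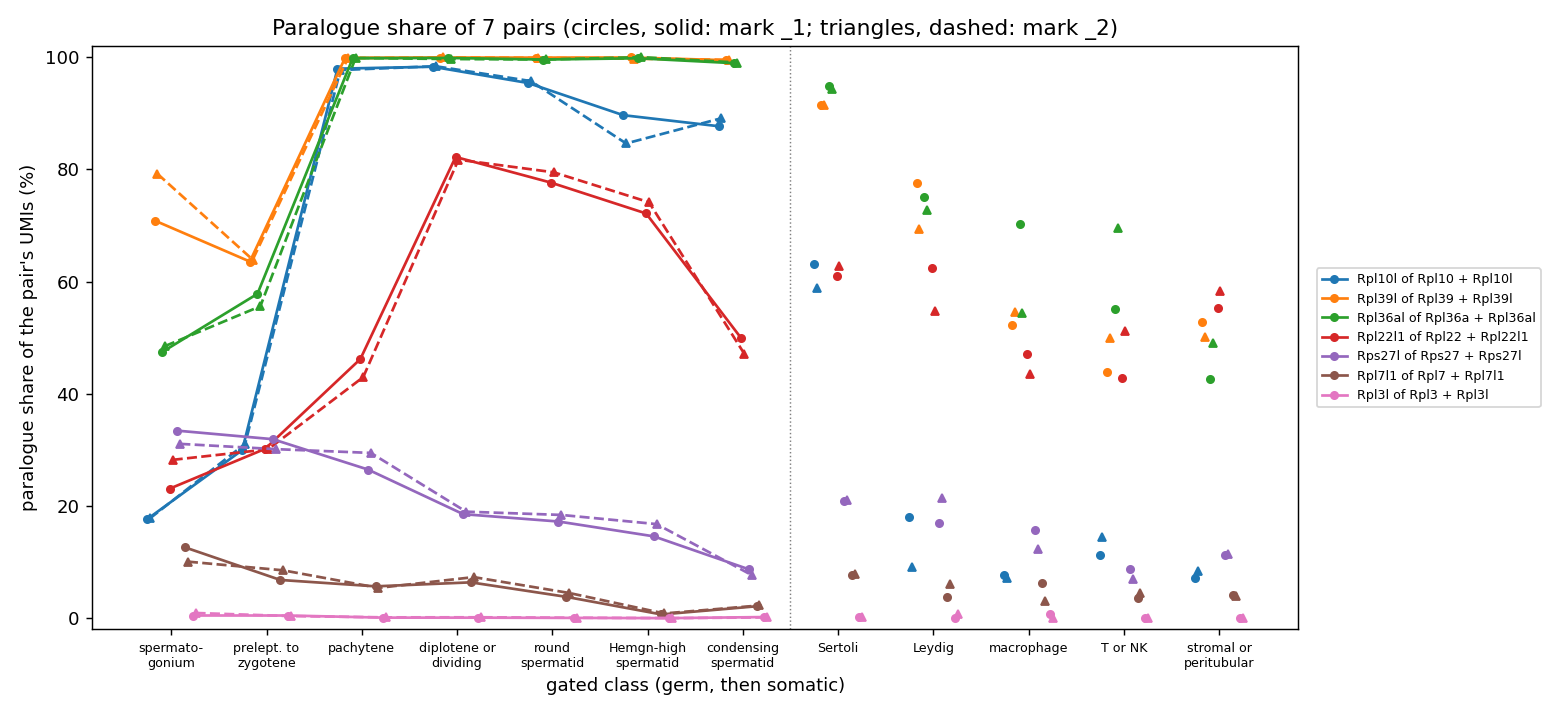
Share of a pair's UMIs that came from the paralogue (percent) by gate, for 7 pairs (colours), under mark 1 (circles, solid lines) and mark 2 (triangles, dashed lines). The 3 paralogues of X-linked genes reach at least 97.7% in the pachytene gate, and Rpl22l1 reaches 82.2% and 81.7% in the diplotene or dividing gate.

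The core members did not move as a block. Of the 84 members 67 had their highest germ level in spermatogonia, 51 had their lowest in Hemgn-high and 27 in condensing spermatids. Neighbouring germ gates were compared with a size rule, which calls a gene when each mark shows a ratio of 1.5 or more, both pointing one way, and the higher gate holds no fewer than 50 CPM and 50 UMIs. A gene was measured if it had at least 20 UMIs over both gates, and the same rule over all measured genes gives the background. Many measured genes lie below the 50 CPM that a call needs. For the members, counts are therefore also given over all genes of at least 50 CPM in the higher gate under both marks.

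From spermatogonia to the preleptotene to zygotene gate 43 of 84 members were lower, against 6.33% of all measured genes, and 1 was higher, against 4.41%. Of 4715 genes of at least 50 CPM, 789 were lower and 549 higher. The median log2 ratio of members was -0.61, against 0.06 for all measured genes. Small subunit genes were at the low end. Rps2, at the mRNA entry channel, stood at 2360 and 2415 CPM in spermatogonia and 514 and 614 CPM after the step, with ratios of 0.218 (0.197 to 0.241) and 0.254 (0.227 to 0.284). Rps3, its neighbour in the ribosome and also a DNA repair factor, stood at 1349 and 1347 CPM and then 327 and 352 CPM. The stalk proteins that recruit elongation factors moved less evenly, with Rplp2 at 2913 and 2810 CPM and then 1163 and 1015 CPM, Rplp1 at 2665 and 2714 CPM and then 1835 and 2019 CPM, and Rplp0 at 2135 and 2348 CPM and then 1423 and 1356 CPM. Of these, Rplp2 and Rplp0 were called lower and Rplp1 was not. Rpsa, which is also known as the laminin receptor, was called lower, from 1442 and 1574 CPM to 625 and 682 CPM. The 1 member called higher was X-linked Rpl39, at a ratio of 1.66 (1.44 to 1.90) and 2.28 (1.92 to 2.69), a call lost with edgeR TMM factors. Rps27 and Rps20 had ratios of 1.35 to 1.37 and 1.26 to 1.33 and were not called. The gap in estimated free RNA between these gates stands beside all of these values, and with that profile subtracted 41 of the 44 calls were kept. Doubling the marker threshold left 28 members lower.

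From there to the pachytene gate 12 of 83 measured members were higher, against 8.86% of all genes, and 16 lower, against 6.65%. The split moved with the scaling. TMM factors gave 17 higher and 9 lower members, and DESeq2 size factors gave 4 higher and 19 lower. On CPM scaling, 1186 of 4744 genes of at least 50 CPM were higher and 890 lower. The median of members was -0.07, against -0.43 for all measured genes. Rpl36a, Rpl39 and Rpl10 had the lowest ratios among members with at least 50 CPM in the higher gate, and Rpl10l, Rpl39l and Rpl24 the highest, followed by Rpl29 and Rpl36al. Rpl24, a protein at the subunit interface, stood at 627 and 667 CPM and then 1175 and 1188 CPM. Rplp0 was also called higher, from 1423 and 1356 CPM to 2274 and 2471 CPM, while Rpl22 and Rps27l were called lower.

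From the pachytene to the diplotene or dividing gate 36 of 83 measured members were lower, against 7.87% of all genes, and 1 was higher, against 6.93%. Of 4109 genes of at least 50 CPM, 1160 were lower and 1022 higher. The median of members was -0.56, against -0.20 for all measured genes. The lowest ratios were those of 3 large subunit genes. Rpl10a, of the L1 stalk at the tRNA exit, stood at 584 and 631 CPM and then 114 and 84.7 CPM. Rpl14 stood at 600 and 703 CPM and then 137 and 139 CPM, and Rpl22 is described above. Rpl22l1 was the member called higher, and among members with at least 50 CPM in the higher gate Rpl39l and Rps26 followed without a call, at ratios of 1.23 to 1.299 and 1.16 to 1.19.

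From there to round spermatids 7 of 83 measured members were lower, against 7.29% of all genes, and 0 were higher, against 6.88%. Of 4089 genes of at least 50 CPM, 1243 were lower and 1174 higher, larger shares than among the members. The 7 members called lower were Rpl14, Rps27a, Rps3, Rpl10a, Rpl4, Rpl9 and Rpl15. Rps27a, which is made as a fusion with ubiquitin, stood at 837 and 818 CPM and then 181 and 211 CPM, with ratios of 0.217 (0.210 to 0.224) and 0.258 (0.250 to 0.266). Rps3 stood at 279 and 274 CPM and then 70.1 and 84.1 CPM. Rpl4, a protein of the exit tunnel, stood at 330 and 315 CPM and then 118 and 124 CPM. Against spermatogonia, round spermatids held 0.0164 and 0.0202 times the Rpl14 level, 0.0376 and 0.0310 times that of Rpl10a, 0.0520 and 0.0624 times that of Rps3 and 0.122 times that of Rpl4 under each mark. Rps20, which had the most UMIs of all members (706963 over all barcodes), stood at 0.773 and 0.745 times its spermatogonium level. Among the 73 autosomal core members this ratio thus ranged from 1.83% to 87.4%, around a median of 37.9%. All these genes were counted in the same barcodes, so depth and gate are shared between them.

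In the spermatid gates the calls depend on how the gates are scaled. The median share of the 10 elongating or condensing spermatid markers was 1.51% and 1.41% in round, 10.52% and 9.06% in Hemgn-high and 21.7% and 22.4% in condensing spermatids. Between round and Hemgn-high spermatids 19 of 83 measured members were lower, against 10.1% of all genes, and 0 higher, against 5.28%. Of 3852 genes of at least 50 CPM, 1688 were lower and 884 higher, so members were called lower less often than these genes. TMM factors left 1 member higher and 4 lower, and DESeq2 size factors left 2 higher and 3 lower. These factors moved the median of all genes from -0.47 to 0.02 and 0.23. Rpl4 stood at 30.2 and 37.1 CPM after this step, Rps3 at 26.6 and 32.6 CPM and Rpl10l at 56.6 and 55.1 CPM, at ratios of 0.257 and 0.299, 0.380 and 0.387, and 0.358 and 0.366. Among members with at least 50 CPM in the higher gate Rpl7 had the highest ratio, 1.23 and 1.22, and was not called.

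Between Hemgn-high and condensing spermatids 6 of 83 measured members were higher, against 1.82% of all genes, and 15 lower, against 8.71%. Of 2929 genes of at least 50 CPM, 290 were higher and 1390 lower. TMM factors turned the member counts into 54 higher and 0 lower, and DESeq2 size factors into 49 higher and 0 lower. No direction is therefore given for the family at this step. The relative order within the family does not depend on such a factor. Rps20 stood at 1568 and 1566 CPM and then 2887 and 3110 CPM, and Rpl41, the smallest ribosomal protein, at 1300 and 1308 CPM and then 2461 and 2535 CPM. Rpl30 stood at 948 and 961 CPM and then 431 and 408 CPM, and Rps27l at 109 and 129 CPM and then 61.5 and 55.7 CPM. Rps20 made up 1.56% and 1.68% of member UMIs in spermatogonia and 6.68% and 6.97% in condensing spermatids, and Rpl41 1.85% and 1.73% and then 5.69% and 5.68%. The 10 most abundant members of each gate supplied 22.5% and 22.3% of member UMIs in spermatogonia, 28.7% and 28.8% in round spermatids and 35.5% and 35.6% in condensing spermatids.

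**Figure D4:**
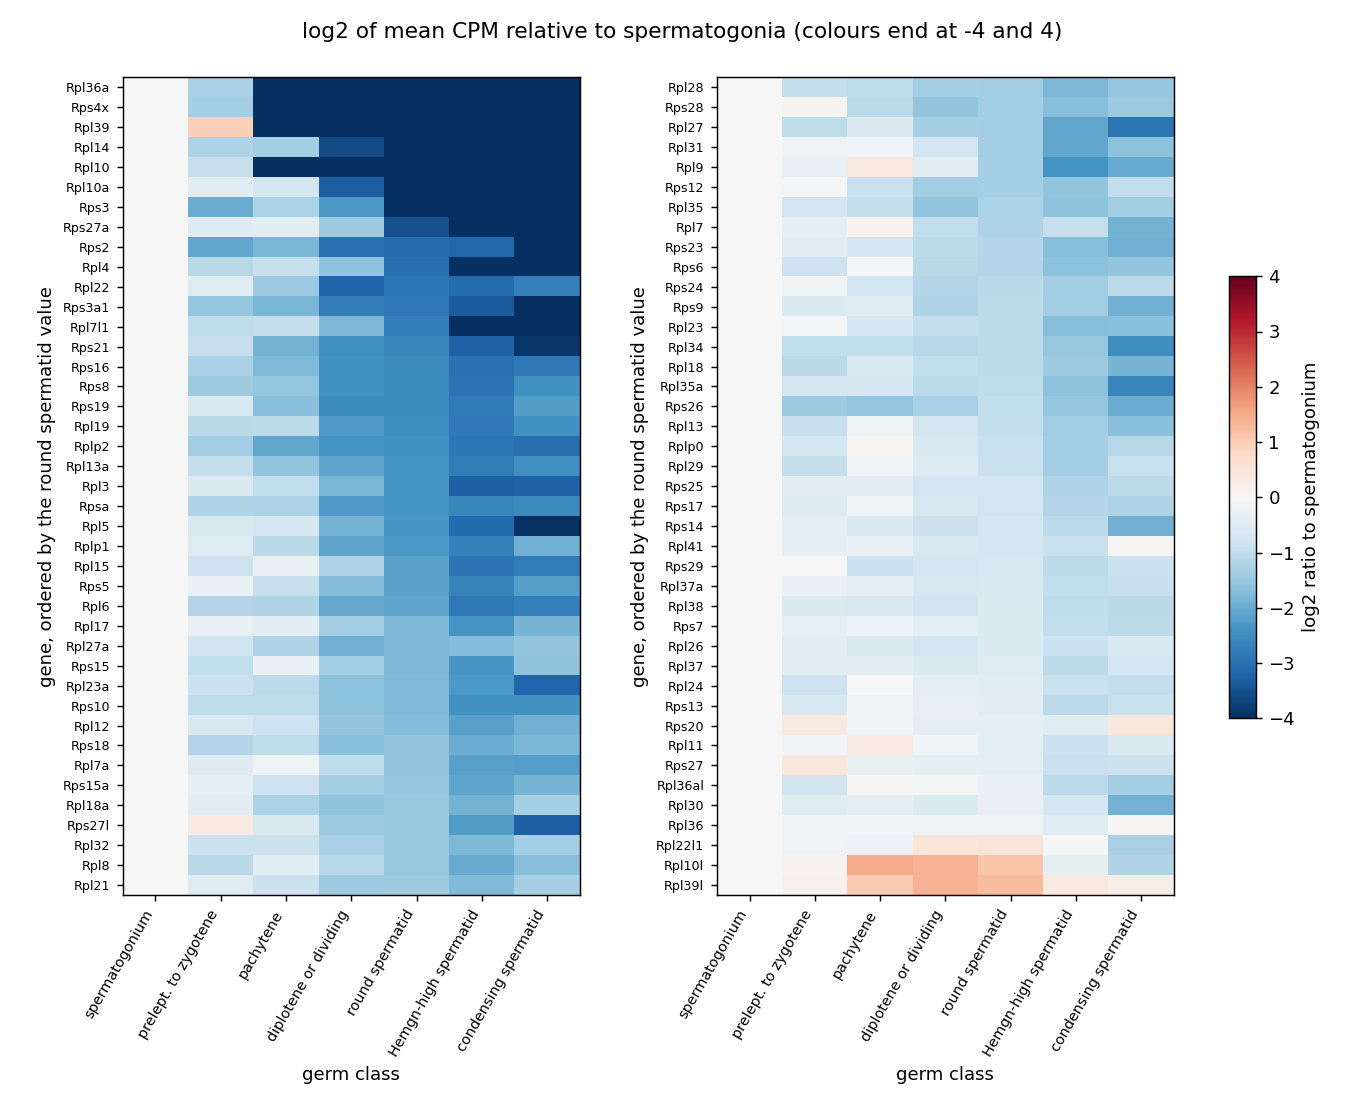
Colour gives the log2 ratio of each gene's mean CPM over both marks to its spermatogonium level (limits -4 to 4), for 82 members with at least 20 CPM in spermatogonia, by germ gate (columns) and ordered by the round spermatid value. X-linked genes, Rpl14, Rpl10a and Rps3 are at the low end, and Rpl22l1, Rpl10l and Rpl39l at the high end.

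The rest of the translation machinery was read with lists set by function. Their counts are set against all measured genes, many of which lie below the 50 CPM that a call needs. The shares among genes of at least 50 CPM, given above for each step, are larger. Fau, made as a fusion with a ubiquitin-like protein, and Rack1, a signalling scaffold on the small subunit, differed in their course. Rack1 stood at 809 and 811 CPM in spermatogonia and 40.2 and 41.5 CPM in round spermatids. Fau stayed between 986 and 1582 CPM in all germ gates but spermatogonia, where it stood at 1880 and 2042 CPM.

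Of the 78 mitochondrial ribosomal proteins, all measured at each step, 26 were lower and 1 higher at the first step, against 6.33% and 4.41% of all measured genes. At the step into the pachytene gate 25 were higher and 3 lower, against 8.86% and 6.65%, with a median log2 ratio of 0.46. At the next step 32 were lower and 1 higher, against 7.87% and 6.93%. Their summed level was 7864 and 7948 CPM in spermatogonia, 6057 and 6548 CPM in the preleptotene to zygotene gate and 8492 and 8976 CPM in the pachytene gate, above that of spermatogonia, whereas the cytosolic members were below theirs. Of 40 genes of ribosome biogenesis, 11 were lower and 1 higher at the first step, against 6.33% and 4.41% of all measured genes. At the second step 7 were higher and 1 lower, against 8.86% and 6.65%. Of 4744 genes of at least 50 CPM, 1186 were higher and 890 lower at that step, both larger shares than among the biogenesis genes. The sum of the biogenesis genes went from 7149 and 6886 CPM in spermatogonia to 2665 and 2777 CPM in round and 827 and 809 CPM in condensing spermatids. Nucleolin (Ncl), the nucleolar RNA-binding protein, stood at 1691 and 1603 CPM in spermatogonia, 124 and 145 CPM in the pachytene gate and 15.8 and 14.96 CPM in the diplotene or dividing gate.

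Of 33 genes of translation initiation, 8 were lower and 4 higher at the first step, against 6.33% and 4.41% of all measured genes, with a median log2 ratio of -0.07. Pabpc1, the main poly(A)-binding protein, was called higher at both of the first steps, from 914 and 894 CPM in spermatogonia to 3229 and 2975 CPM in the pachytene gate. Among 16 regulators of pyrimidine-run mRNAs, 1 was lower and 2 higher at the first step, against 6.33% and 4.41% of all measured genes, so the lower calls were at that background. Larp1, which binds the start of such mRNAs, stood at 143 and 138 CPM in spermatogonia, 135 and 140 CPM in the preleptotene to zygotene gate, 422 and 369 CPM in the pachytene gate and 136 and 126 CPM in round spermatids. It was called higher into the pachytene gate and lower at both of the following steps.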

How the data were processed

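The deposited file is 1 table of counts, which the authors made as whole numbers of UMIs per gene and barcode without normalisation, as the values show. Per the submitters' processing notes, the tools were Seurat 3.2.2 and Cell Ranger 1.3.1, with the GRCm38 build. How barcodes were filtered is not stated in the labels or the table. The members, lists and gates were chosen with earlier results of these data known, and no doublet caller was run (leaving out barcodes above the 95th percentile of UMIs was an alternative). Counts were summed per gate and barcode mark (Python 3.11.15, scipy 1.17.1), scaled to CPM, and given exact 95% Poisson, Clopper-Pearson or conditional binomial intervals, which cover counting error only. A count of 0 was set to 3 counts for ratios. Calls used the size rule of the report, with edgeR 4.0.16 TMM and DESeq2 1.42.0 size factors as alternatives to CPM scaling. The rule was tested only on simulated counts with counting error alone. The changes set there were larger than 1.5-fold and lay in genes well above 50 CPM. That simulation does not cover calls near the thresholds or gates that differ in free RNA. Other alternatives were a 2-fold threshold, no filter on low counts, stricter gates (the 1.5-fold one chosen after seeing the data) and free RNA subtraction. Named genes were X-linked members, paralogue pairs, Rplp0, Rplp1, Rplp2 and Rpsa, the 3 highest and 3 lowest ratios per step among members with at least 50 CPM in the higher gate, and the members with the most and fewest UMIs. Genes of the other lists, and members beyond this rule, were named after their values were seen. Some values of single genes are not reported here.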

Additional observations from a re-analysis of the deposited data

How the results depend on the processing

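The order of member shares from spermatogonia to Hemgn-high spermatids kept its direction under the settings below, where values could be had. Medians of the shares per barcode did not keep it at the step into the pachytene gate. Pooled, they were 8.39% in the preleptotene to zygotene gate and 8.43% in the pachytene gate. They were 8.17% and 8.26% under mark 1, but 8.61% and 8.57% under mark 2. Doubled marker thresholds gave shares of 13.6% (spermatogonia), 10.1% (preleptotene to zygotene), 5.16% (round) and 4.30% (condensing), and left too few pachytene and T or NK barcodes for a value. Thresholds 1.5 times as high, chosen after seeing the data, gave 13.8%, 9.43%, 8.73% (pachytene), 5.75% (diplotene or dividing), 5.34% and 4.38%. Free RNA subtraction gave 17.4%, 11.1%, 8.64% and 5.88% in the first 4 gates. Without the deepest barcodes the preleptotene to zygotene share was 8.59%, pachytene 8.27%, round 5.45% and condensing 4.44%. Mean shares per barcode over the 7 gates were 13.4%, 8.503%, 8.36%, 5.86%, 5.47%, 4.01% and 4.46%, and those without mitochondrial, protamine and transition protein genes 14.5%, 9.40%, 8.497%, 5.95%, 5.51%, 4.39% and 5.62%.

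At the first step 0 members were higher with TMM factors or a 2-fold threshold, 2 with doubled gates and 3 after subtraction, and 17 were lower at 2-fold and 28 with doubled gates. At the second, 9 were lower with TMM factors, 5 at 2-fold and 25 after subtraction, and 4 were higher with DESeq2 size factors and 1 at 2-fold. At the third, 2-fold left 0 higher and 9 lower, and at the fourth, no filter gave 1 higher. Into Hemgn-high spermatids 1 (TMM) and 2 (DESeq2) were higher, and 4 (TMM), 3 (DESeq2), 5 (2-fold) and 9 (doubled gates) lower. Into condensing spermatids 54 (TMM), 49 (DESeq2), 10 (no filter), 0 (2-fold) and 3 (1.5 times the gate) were higher, and 0 (TMM), 0 (DESeq2) and 2 (2-fold) lower. The log2 ratio of Rpl22l1 into Hemgn-high spermatids was reversed, at 0.10, with DESeq2 size factors. The cause was not tested.

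The Rpl10l share was 9.78% after subtraction and 21.3% as a mean per barcode in spermatogonia, 98.4% (1.5 times the gate), 98.6% (subtraction) and 97.3% (per barcode) in the pachytene gate, and 94.6% (doubled gate) and 96.5% (subtraction) in round spermatids. The Rpl39l share in spermatogonia was 86.8%, 80.9%, 49.9% and 77.9% under doubled, 1.5 times, subtraction and per barcode settings. It was 99.9% and 99.7% (subtraction, per barcode) in the pachytene gate, and in round spermatids 99.92% under both stricter gates, 99.97% after subtraction and 99.86% per barcode. The Rpl36al share was 39.8% and 50.1% (subtraction, per barcode) in spermatogonia, 99.97% in the pachytene gate after subtraction, and 99.72%, 99.69% and 99.75% in round spermatids (doubled, 1.5 times, subtraction).

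No paired analysis was possible because each genotype has 1 library and the result comes from no test. Marks 1 and 2 are not tied to genotypes. Few barcodes and a high free RNA estimate limit the values of the preleptotene to zygotene gate and of most somatic gates.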

Other observations

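Elongation factor genes, like the ribosomal proteins, did not move together. Of 14 such genes, 5 were called lower and 0 higher from spermatogonia to the preleptotene to zygotene gate, against 6.33% and 4.41% of all measured genes. From round to Hemgn-high spermatids 4 were called higher and 4 lower, against 5.28% and 10.1%. Of 3852 genes of at least 50 CPM, 884 were higher and 1688 lower, so elongation genes were called lower less often than these. Eef1a1, which carries tRNAs to the ribosome, stood at 2251 and 2420 CPM in spermatogonia under marks 1 and 2, 2628 and 2659 CPM in the pachytene gate and 1107 and 1149 CPM in round spermatids. The subunits of its exchange factor went apart in spermatids. Eef1d stood at 138 and 154 CPM in the diplotene or dividing gate, 424 and 397 CPM in round and 817 and 855 CPM in condensing spermatids. Eef1g stood, in the same gates, at 297 and 298 CPM, then 307 and 301 CPM, then 982 and 1020 CPM. Eef1b2 stood at 204 and 205 CPM, then 101 and 103 CPM, then 56.2 and 51.3 CPM. The last calls were made on CPM scaling, and these genes were named after their values were seen.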
